A study of Mus musculus with 72 samples.

Results

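The superoxide dismutases Sod1, Sod2 and Sod3, with Ccs, the chaperone that loads copper into Sod1, were followed through the postnatal brain of Ts1Cje mice and their disomic littermates. Every probe set that the array's annotation assigns to these 4 genes was taken, which gave 4 of the 18194 genes with a probe set of their own and 12 of the 45101 probe sets on the array, 5 for Sod1, 4 for Sod2, 2 for Sod3 and 1 for Ccs. Ts1Cje mice carry an extra copy of the segment of chromosome 16 that runs from Sod1 to Znf295, translocated onto chromosome 12. There they have also lost a copy of a stretch that holds Itgb8 and several other genes. Sod1 lies at the proximal edge of the triplicated segment, and the study describes one of its copies as truncated and without function. Each probe set is therefore described on its own. The disomic group consisted of C57BL/6 littermates from matings of Ts1Cje males with C57BL/6 females, and all mice, genotyped by PCR for the neomycin cassette, were labelled female. Cerebral cortex, cerebellum and hippocampus were taken from the same mice at postnatal days 1, 15, 30 and 84 (P1, P15, P30 and P84), which made 24 groups of 3 mice and 72 arrays. The methods give the first age as slightly later than the labels do.

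Superoxide, the radical that leaks from the respiratory chain and is made by NADPH oxidases, is converted by the dismutases into hydrogen peroxide and oxygen. Sod1 is the copper-zinc enzyme of the cytosol, Sod2 the manganese enzyme of the mitochondrial matrix and Sod3 the secreted copper-zinc enzyme of the extracellular space. The human counterpart of Sod1 lies on the chromosome that is triplicated in Down syndrome, and mutations in it cause a familial form of amyotrophic lateral sclerosis.

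The mouse Sod1 gene occupies chr16:90220762-90226333 in assembly GRCm38.p6. The promoter sequences in RefSeq's tables of that build matched 2 of the 4 members, Sod1 and Sod2, and the 250 bases before each start are shown for both. Whether these sequences bear on the genotype difference was not tested. The Sod1 stretch is chr16:90220512-90220761 and the Sod2 stretch chr17:13007589-13007838, both on the plus strand, and capitals mark the motif matches.
Sod1: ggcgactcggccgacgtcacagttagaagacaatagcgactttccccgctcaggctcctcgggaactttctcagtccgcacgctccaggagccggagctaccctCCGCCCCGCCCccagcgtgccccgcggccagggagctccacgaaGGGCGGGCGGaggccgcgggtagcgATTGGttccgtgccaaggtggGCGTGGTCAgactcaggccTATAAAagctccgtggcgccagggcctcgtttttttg
Sod2: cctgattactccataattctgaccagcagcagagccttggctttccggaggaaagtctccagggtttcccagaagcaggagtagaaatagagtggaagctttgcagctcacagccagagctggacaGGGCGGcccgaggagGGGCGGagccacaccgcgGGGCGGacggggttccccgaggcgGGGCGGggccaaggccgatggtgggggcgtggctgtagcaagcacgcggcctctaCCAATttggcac
Both stretches were rich in G and C, at 66.4% for Sod1 and 63.6% for Sod2. Searched on both strands, the GC box GGGCGG occurred 4 times in each, with overlapping copies in Sod1, and the CCAAT box CCAAT once in each. Among 32851 promoter stretches of this length, 32.7% held the GC box and 33.8% the CCAAT box. The TATA box TATAAA was found in Sod1 alone of the pair, 37 bases before its start, and 12.4% of all stretches held it. The core of the antioxidant response element, TGACNNNGC, matched once in Sod1, on the minus strand, and not in Sod2, against 10.2% of all stretches. These matches describe the letters only, and binding was not measured.

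Expression values were log2 levels made by the authors with gcRMA, a method that subtracts background from each probe by its base composition and puts the arrays on a common scale. The medians of the arrays lay between 3.20 and 3.37, so a level near 3 was no higher than that of a typical probe set. Values of different probe sets depend on the probes, and the order of levels across probe sets below is therefore only descriptive. Sod1 probe set 1459976_s_at averaged 10.92 over all arrays and 1451124_at 10.16, above 98.6% and 97.3% of all probe sets on the array. The other Sod1 probe sets were dimmer, with 1435304_at at 6.94, 1440222_at at 3.97 and 1447761_x_at at 1.60, and the last of these never exceeded the median of its array. Of the Sod2 probe sets, 1417193_at averaged 8.72, 1448610_a_at 8.65, 1454976_at 7.48 and 1417194_at 3.20. Sod3 was measured near or below the array median, at 2.96 (1417633_at) and 2.13 (1417634_at), and Ccs averaged 3.94 (1448615_at). The suffixes _s_at, _x_at and _a_at mark probe sets that may detect more than 1 transcript or gene.

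Some arrays stood apart. On 3 disomic replicate 3 arrays (P1 cerebellum, P84 cerebral cortex and P84 hippocampus) the upper quartile of all values was 4.97, 5.23 and 5.51, below the 5.65 to 5.93 of every other array, and these are called the dim arrays. The disomic replicate 3 arrays of P15 cerebellum and P15 hippocampus each lay with the other region, at -0.02 and 1.02 on a scale where hippocampus is 0 and cerebellum is 1, and are called the displaced arrays. All other cerebellum arrays lay at 0.93 or above and all other hippocampus arrays at 0.06 or below. Although every mouse was labelled female, the Y-linked gene Eif2s3y exceeded Xist on 69 of 72 arrays, all but the 3 arrays of P1 Ts1Cje replicate 3. By the limits given below, none of the 47 measured genes in 12 marker lists of cell types and brain regions was called by genotype. This held for each region average and for the average over all regions. In the region averages, which include the displaced disomic arrays, the 6 cerebellum markers were all higher in Ts1Cje cerebellum (median difference 0.767). In the hippocampus average all 6 were lower in Ts1Cje mice (median -0.506). Because RNA came from whole tissue, fewer cells of a type and less RNA per cell cannot be told apart.

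Sod1 signal on the arrays was higher in Ts1Cje than in disomic mice by 3 of its 5 probe sets. The study also measured Sod1 by quantitative PCR on the same RNA of cerebral cortex and cerebellum. It marked no significant genotype difference there at any age, with small values of either sign, and listed none for hippocampus. The array differences below were thus not seen by that method. Calls were made with limma, which compares groups by a spread estimated across all arrays, and needed a moderated t of 4 or more in size (-4 or below for a fall) beside an adjusted p no higher than 0.05. Averaged over the 3 regions and 4 ages, the difference in log2 level was 0.61 for 1459976_s_at (95% interval 0.415 to 0.809, adjusted p = 3.9e-05), or 1.53-fold. It was 0.56 for 1451124_at (0.421 to 0.700, adjusted p = 8.4e-08), or 1.47-fold, and 1.16 for 1440222_at (0.989 to 1.33, adjusted p = 3.0e-15), or 2.23-fold. The intervals of the first pair include 0.585, the log2 of a ratio of 3 copies to 2, and that of 1440222_at lies above it. Differences between probe sets were not tested. Over the whole array 0.561% of probe sets were called in this average, and of the members only these 3. Taking the mouse as a random block, because the 3 regions came from the same mice, left 3 members called. That block used 1 correlation within mice for all probe sets, 0.0856. The correlation of each Sod1 probe set was not estimated, so the check may adjust these probe sets too little.

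The brightest Sod1 probe set, 1459976_s_at, ranged from 10.10 to 11.99 (median 11.31) on the 36 Ts1Cje arrays and from 9.78 to 11.49 (median 10.62) on the 36 disomic arrays. The genotypes overlapped, and 14 Ts1Cje arrays exceeded the highest disomic array. Levels of 1451124_at ran from 9.60 to 11.00 (median 10.42) in Ts1Cje mice and from 9.09 to 10.71 (median 9.93) in disomic mice. Here 10 Ts1Cje arrays lay above every disomic array. The dimmer 1440222_at ran from 3.22 to 5.32 (median 4.58) in Ts1Cje mice and from 2.50 to 4.25 (median 3.36) in disomic mice. This probe set gave the cleanest separation, with 29 of 36 Ts1Cje arrays above the highest disomic array. Its disomic level was close to the floor, however, since 35 of 36 Ts1Cje arrays but 23 of 36 disomic arrays exceeded their own array's median, and the size of its difference is correspondingly uncertain.

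**Figure D1:**
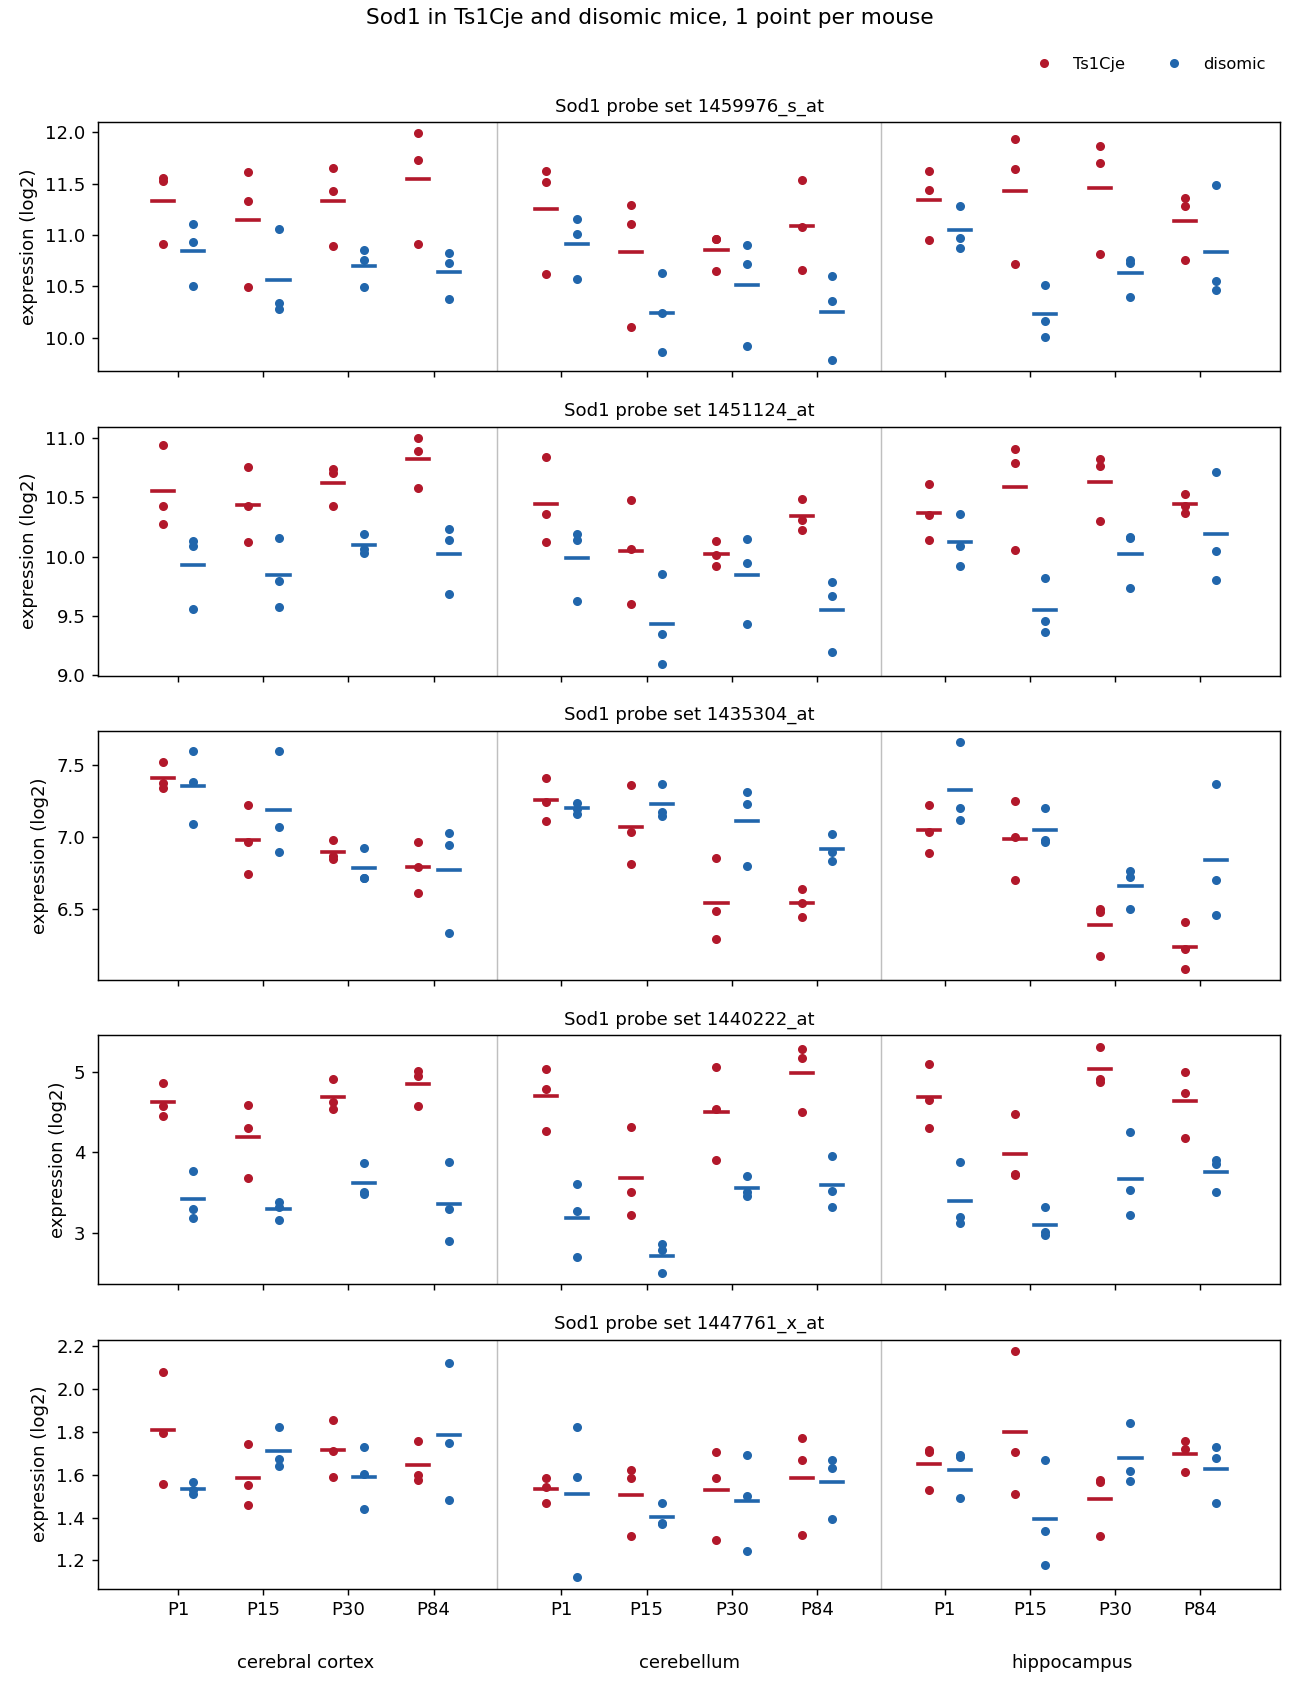
Expression (log2, vertical axes, 1 panel for each Sod1 probe set) in every mouse, by region and age, with Ts1Cje mice in red to the left of disomic mice in blue and bars for group means (n = 3). In the panel of 1440222_at every red point lies above the blue points of its own group pair, in 12 of 12 comparisons, while the panel of 1447761_x_at shows both genotypes between 1.12 and 2.18.

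Within each region the same order held. In the cerebral cortex 1440222_at averaged 4.59 ± 0.359 in Ts1Cje and 3.42 ± 0.298 in disomic mice (SD, n = 12 each), and the fitted difference was 1.17 (SE 0.147, adjusted p = 5.2e-07). In the cerebellum it averaged 4.47 ± 0.660 in Ts1Cje and 3.27 ± 0.452 in disomic mice, a difference of 1.20 (adjusted p = 2.3e-07). Hippocampal levels were 4.58 ± 0.515 in Ts1Cje and 3.48 ± 0.413 in disomic mice, a difference of 1.10 (adjusted p = 1.7e-06). All 3 regions were called, and they remained called in every alternative that tested this probe set. Over the whole array 0.202% of probe sets were called in the cortical average, 0.231% in the cerebellar and 0.193% in the hippocampal one.

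Sod1 probe set 1451124_at was likewise called in all 3 region averages, with smaller differences. Its level was 10.61 ± 0.275 in Ts1Cje and 9.97 ± 0.248 in disomic cerebral cortex (difference 0.64, SE 0.121, adjusted p = 0.0021). In the cerebellum it was 10.21 ± 0.315 in Ts1Cje and 9.70 ± 0.376 in disomic mice (0.51, adjusted p = 0.0427). In the hippocampus it was 10.50 ± 0.279 in Ts1Cje and 9.97 ± 0.373 in disomic mice (0.53, adjusted p = 0.0292). Every one of these calls was lost when the 12 Ts1Cje arrays of replicate 2, the 12 of replicate 3 or the 12 disomic arrays of replicate 1 were left out, with cortical differences of 0.62, 0.53 and 0.51, cerebellar ones of 0.53, 0.38 and 0.33 and hippocampal ones of 0.47, 0.46 and 0.40. The hippocampal call was also lost without disomic replicate 3 (0.55, adjusted p = 0.14) and without the dim arrays (0.52, adjusted p = 0.0669), and the cerebellar call without the 3 arrays on which Xist exceeded Eif2s3y (0.46, adjusted p = 0.143). The cerebellar and hippocampal calls were lost with quantile normalization between arrays (adjusted p = 0.113 and 0.105) and with a separate fit per region (0.338 and 0.115). The call over all regions remained in each of these settings. Replicate 1 was low in both genotypes, at 10.19 in Ts1Cje and 9.58 in disomic mice, against 10.48 and 10.08 for replicate 2. Leaving out disomic replicate 1 alone therefore took low arrays from 1 side only and narrowed the difference.

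Sod1 probe set 1459976_s_at differed by about as much as 1451124_at but with a wider spread. Its levels were 11.34 ± 0.438 in Ts1Cje and 10.69 ± 0.284 in disomic cerebral cortex, a difference of 0.65 (SE 0.170, adjusted p = 0.143). Cerebellar levels were 11.01 ± 0.452 in Ts1Cje and 10.48 ± 0.454 in disomic mice, a difference of 0.53 (adjusted p = 0.447), and hippocampal levels 11.34 ± 0.437 in Ts1Cje and 10.68 ± 0.432 in disomic mice, a difference of 0.66 (adjusted p = 0.133). None of the region averages was called, whereas all 3 were without Ts1Cje replicate 1, at 0.92, 0.78 and 0.92 in cerebral cortex, cerebellum and hippocampus. The replicate 1 array was the lowest of its 3 in 22 of 24 groups, both for 1459976_s_at and for 1451124_at, which 0.228% of all probe sets matched or exceeded. Leaving out replicate 1 of Ts1Cje mice thus took low arrays from that genotype alone, which widened the difference. With the replicate number as a block over all ages the differences stayed at 0.65, 0.53 and 0.66. All 3 were then called (adjusted p = 1.4e-05, 6.3e-04 and 1.0e-05 in cerebral cortex, cerebellum and hippocampus). For 1440222_at the replicate 1 array was lowest in 4 of 24 groups. Labels do not say what the replicate number stands for.

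Taken by replicate number, the mean Ts1Cje minus disomic difference of 1459976_s_at was 0.40, 0.59 and 0.85 for replicates 1, 2 and 3, and that of 1451124_at was 0.61, 0.40 and 0.67. For 1440222_at it was 1.09, 1.13 and 1.26, with the Ts1Cje array higher in 12 of 12 comparisons for each number. The mean of these 3 probe sets was higher in Ts1Cje mice with every replicate number.

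The next Sod1 probe set, 1435304_at, did not show the higher level. Over all regions it was -0.19 (95% interval -0.299 to -0.083, adjusted p = 0.0958), and in the cerebral cortex its levels were 7.02 ± 0.281 in Ts1Cje and 7.02 ± 0.368 in disomic mice. Cerebellar levels were 6.85 ± 0.380 in Ts1Cje and 7.11 ± 0.187 in disomic mice (difference -0.26, adjusted p = 0.653), and hippocampal levels 6.66 ± 0.410 in Ts1Cje and 6.97 ± 0.359 in disomic mice (-0.31, adjusted p = 0.396). The 95% interval over all regions lay below 0 while those of the 3 probe sets above lay above it. The overall value became a call in the lower direction without the dim arrays (-0.22, adjusted p = 0.0149) and without disomic replicate 1 (-0.24, adjusted p = 0.0415). The last Sod1 probe set, 1447761_x_at, lay at the floor of the values, at 1.30 to 2.18 in Ts1Cje and 1.12 to 2.12 in disomic mice, where a difference could not have been detected. Over the 24 group means 1459976_s_at ran with 1451124_at (Pearson r = 0.964) and 1440222_at (r = 0.806) but not with 1435304_at (r = -0.165), which describes how the probe sets varied together on the same arrays. The positions of the probes within Sod1 were not analysed here, and whether any of them detect the truncated copy was not determined.

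**Figure D2:**
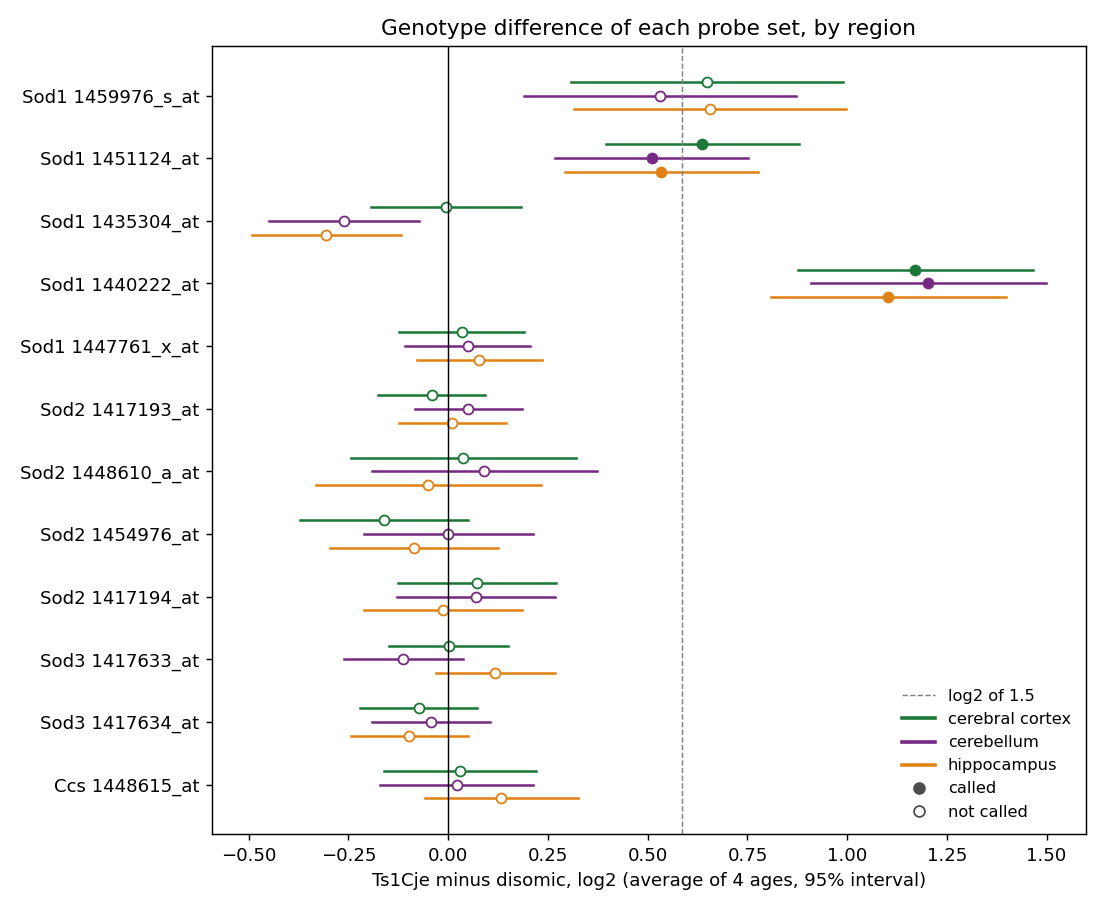
Ts1Cje minus disomic difference in log2 level (horizontal axis, average of 4 ages, with 95% intervals) for each of the 12 probe sets in 3 regions, where filled points were called and open points were not and the dashed line marks 0.585, the log2 of 1.5. Filled points occur only for Sod1 1451124_at, between 0.51 and 0.64, and 1440222_at, between 1.10 and 1.20, and the points of Sod2, Sod3 and Ccs lie around 0.

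Sod2, Sod3 and Ccs did not differ detectably by genotype. Over all regions the differences of the 4 Sod2 probe sets ran from -0.08 (1454976_at) to 0.04 (1417194_at), those of Sod3 were 0.002 (1417633_at) and -0.07 (1417634_at), and that of Ccs was 0.06. Mitochondrial Sod2, by probe set 1417193_at, ran from 7.56 to 9.20 (median 8.84) on Ts1Cje arrays and from 7.88 to 9.35 (median 8.85) on disomic arrays. Ccs ran from 3.37 to 4.63 (median 3.91) in Ts1Cje and from 3.21 to 4.46 (median 3.94) in disomic mice. The ranges of the genotypes coincided almost entirely for both genes. Sod3 levels lay too near the floor for a small difference to be seen.

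At single ages only Sod1 1440222_at was called, in 3 of 12 comparisons. In the P1 cerebellum its levels were 4.79, 5.04 and 4.27 in Ts1Cje mice and 3.27, 3.60 and 2.70 in disomic mice, a difference of 1.51 (SE 0.293, adjusted p = 0.00557). P84 cortical levels were 4.58, 5.02 and 4.95 in Ts1Cje mice and 3.88, 3.29 and 2.90 in disomic mice (1.49, adjusted p = 0.018), and P84 cerebellar levels 5.18, 4.50 and 5.29 in Ts1Cje mice and 3.96, 3.52 and 3.32 in disomic mice (1.39, adjusted p = 0.021). The groups did not overlap in any of the 3. The study's own array analysis marked 1440222_at as significant in the P1 cerebral cortex and the P84 cerebellum, with larger differences than here. Of these only the P84 cerebellum was called here. The lowest disomic values of the P1 cerebellum and P84 cerebral cortex came from dim arrays, without which the differences were 1.26 in both and not called (adjusted p = 0.16 and 0.426), while that of the P30 hippocampus was called (1.36, adjusted p = 0.0444). Calls at single ages also depended on other mice. The P84 cortical call was lost when Ts1Cje replicate 2 (leaving 1.41), Ts1Cje replicate 3 (1.44), disomic replicate 2 (1.46) or disomic replicate 3 (1.26) was left out. The P84 cerebellar call was lost on leaving out Ts1Cje replicate 1 (1.30), Ts1Cje replicate 3 (1.24), disomic replicate 2 (1.35) or disomic replicate 3 (1.25), and the P1 cerebellar call on leaving out disomic replicate 3 (1.26).

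Calls were rare over the whole array at single ages. The cerebral cortex had 0.0111% of probe sets called at P1, 0.00222% at P15, 0.0133% at P30 and 0.0443% at P84. The cerebellum had 0.494%, 0.0333%, 0.031% and 0.111% at the same ages, the hippocampus 0.0155%, 0.0554%, 0.0177% and 0.071%. The other Sod1 probe sets were therefore described by whether the 3 mice of each genotype overlapped. Every Ts1Cje mouse lay above every disomic mouse in 12 of 12 comparisons for 1440222_at, with differences of 0.88 to 1.51, in 6 of 12 for 1451124_at (0.18 to 1.03) and in 5 of 12 for 1459976_s_at (0.29 to 1.20), against 4.9% of all probe sets and comparisons. For 1451124_at and 1459976_s_at the Ts1Cje mean was the higher one in all 12 comparisons. With 1435304_at every Ts1Cje mouse lay below every disomic mouse in 3 comparisons, against 4.5% over the array.

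The largest single-age difference of the bright Sod1 probe sets was in the P15 hippocampus. There 1459976_s_at stood at 10.72, 11.93 and 11.64 in Ts1Cje mice and 10.001, 10.52 and 10.16 in disomic mice, a difference of 1.20 (adjusted p = 0.23). Probe set 1451124_at stood at 10.05, 10.79 and 10.91 in Ts1Cje mice and 9.36, 9.82 and 9.46 in disomic mice, a difference of 1.03 (adjusted p = 0.0808). Neither was called, and the last disomic value of each is that of a displaced array, without which the differences were 1.17 and 0.99. Both were called without Ts1Cje replicate 1, at 1.56 (adjusted p = 0.00805) and 1.30 (adjusted p = 0.0222). Replicate 1 was the lowest mouse in both genotypes here, so this took a low value from 1 side only. The groups overlapped in the P84 hippocampus, where 1451124_at stood at 10.42, 10.37 and 10.53 in Ts1Cje mice and 9.81, 10.71 and 10.05 in disomic mice, so that 1 disomic mouse exceeded all 3 Ts1Cje mice. Probe set 1435304_at was separate in the lower direction in the P84 cerebellum, at 6.44, 6.54 and 6.64 in Ts1Cje mice and 6.83, 7.02 and 6.90 in disomic mice, and in the P30 and P84 hippocampus. None of the probe sets of Sod2, Sod3 or Ccs was called at any age in any region, with differences between -0.51 and 0.46.

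The genotype difference of Sod1 did not differ detectably between regions. For 1440222_at the cerebellar difference exceeded the cortical one by 0.03 (95% interval -0.383 to 0.449), and for 1451124_at it was smaller by 0.13 (interval for the difference -0.469 to 0.216, cerebellum minus cerebral cortex). For 1435304_at the hippocampal difference was below the cortical one, at -0.30 (-0.565 to -0.0359, adjusted p = 1.00). No probe set of the 45101 was called in any of these 3 comparisons by limma, although 1330, 1419 and 1597 of them had an unadjusted p below 0.05. The intervals are wide, and that of 1451124_at extends to nearly the size of its genotype difference.

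Along chromosome 16, the measured genes on the proximal side of Sod1 did not differ detectably by genotype, but of these only Tiam1 was measured above the floor. Those on the distal side of Sod1 were higher in Ts1Cje mice. The measured genes just proximal to it, outside the triplicated segment, were the hair keratin-associated genes Krtap7-1 and Krtap11-1 and Tiam1, an activator of the GTPase Rac. Over all regions their 5 probe sets differed by -0.04 to 0.03 and none was called. Krtap7-1 and Krtap11-1, with mean levels of 1.74 and 1.67, lay too near the floor for a small difference to be seen. The same holds for the dimmest Tiam1 probe set, at 2.14. The proximal side therefore rests on the other Tiam1 probe sets, with mean levels of 8.78 and 3.84 and differences of 0.03 and 0.001. On the distal side Scaf4, which binds RNA polymerase and messenger RNA, was called by 2 of its 3 probe sets, at 0.55 and 0.31, while the other, at -0.07 and with a mean level of 2.56, was not. The kinase gene Hunk was higher by 0.75 and the centromere factor Mis18a by 0.67 and 0.78 by its pair of probe sets, all called. The Sod1 differences of 0.61 and 0.56 lay within the range of its distal neighbours, and 1.16 for 1440222_at lay above it. That of Sod1 1435304_at, at -0.19, lay below it. Differences between genes were not tested.

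**Figure D3:**
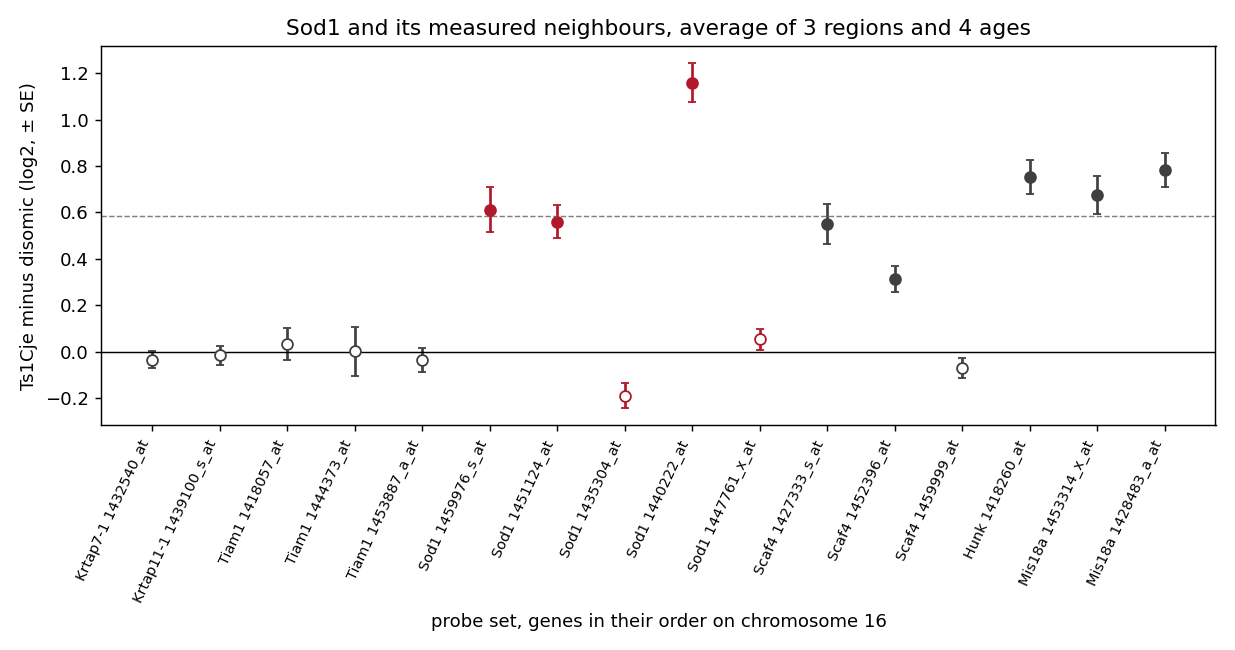
Ts1Cje minus disomic difference in log2 level (vertical axis, average of 3 regions and 4 ages, bars ± SE) for probe sets of Sod1 (red) and its measured neighbours (grey), with genes in their order along chromosome 16, filled points called and open points not called. The proximal genes up to Tiam1 lie between -0.04 and 0.03, with the levels of Krtap7-1 and Krtap11-1 near the floor. Hunk and Mis18a distal to Sod1 lie between 0.67 and 0.78, above the dashed line at 0.585.

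Across postnatal development Sod2 and Sod3 rose, while the bright Sod1 probe sets were not called. In the comparison of P84 with P1, over both genotypes, 26.4% of all probe sets were called in cortex, 27.3% in cerebellum and 23.5% in hippocampus, and of the 12 member probe sets 5, 2 and 6 were. Changes with age were thus common over the whole array, and the members' counts are given as a description.

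Sod2 probe set 1454976_at was called in all 3 regions. In the cerebral cortex it ran from 7.32 to 8.09 (median 7.59) at P84 and from 6.21 to 6.77 (median 6.58) at P1 in 6 mice each, without overlap, and the difference was 1.09 (adjusted p = 1.4e-08). In the cerebellum it ran from 7.54 to 7.94 (median 7.84) at P84 and from 6.05 to 7.22 (median 7.03) at P1, a difference of 0.90 (adjusted p = 9.4e-07). In the hippocampus the range was 7.17 to 8.07 (median 7.77) at P84 and 6.06 to 6.95 (median 6.75) at P1, a difference of 1.03 (adjusted p = 6.5e-08). Both ages were thus separate in each region.

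The brighter Sod2 probe sets were called higher at P84 in the cerebral cortex and hippocampus. Cortical levels of 1417193_at averaged 7.99, 9.13, 9.05 and 8.74 at P1, P15, P30 and P84, cerebellar levels 8.46, 8.97, 8.82 and 8.63, and hippocampal levels 8.04, 9.15, 8.91 and 8.78 (n = 6 each). The highest mean of this probe set was at P15 in all 3 regions. From P1 to P84 its cortical level rose by 0.75 (adjusted p = 1.9e-09) and its hippocampal level by 0.74 (adjusted p = 2.9e-09), and its cerebellar difference was 0.17 (adjusted p = 0.16). Probe set 1448610_a_at rose by 1.18 in cortex and 1.05 in hippocampus and differed by 0.05 in cerebellum, where its P1 mean of 8.34 was above the 7.76 of both other regions. Whether the change with age differed between regions was not tested. The hippocampal call of 1448610_a_at was lost without disomic replicate 2 (0.78, adjusted p = 0.00524). For the dim 1417194_at the P84 minus P1 differences were 0.19, 0.41 and 0.21 in cerebral cortex, cerebellum and hippocampus, and none was called.

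Sod3 rose by its brighter probe set, 1417633_at, in all 3 regions. Its cortical level was 2.84 to 3.51 (median 3.11) at P84 and 2.09 to 2.40 (median 2.34) at P1, a difference of 0.86 (adjusted p = 6.4e-10). The cerebellar difference was 0.74 (adjusted p = 3.0e-08) and the hippocampal difference 0.73 (adjusted p = 5.1e-08). These levels lay near or below the array median, which the probe set exceeded on 14 of 72 arrays, and the sizes may be understated. Probe set 1417634_at was called in the hippocampus only, at 0.43 (adjusted p = 5.9e-04), with a cortical difference of 0.22 and a cerebellar one of 0.27. That call was lost without Ts1Cje replicate 2 (0.36), disomic replicate 1 (0.43) or disomic replicate 3 (0.37), without the dim arrays (0.38) and without the 3 arrays on which Xist exceeded Eif2s3y (0.44), and without Ts1Cje replicate 3 the cerebellar difference was called (0.42).

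Sod1 probe set 1435304_at was the only member called lower at P84 than at P1, in the cerebral cortex and hippocampus. In the cerebral cortex it ran from 6.34 to 7.03 (median 6.87) at P84 and from 7.09 to 7.60 (median 7.38) at P1, a difference of -0.60 (adjusted p = 1.3e-04). In the hippocampus it ran from 6.09 to 7.37 (median 6.44) at P84 and from 6.89 to 7.66 (median 7.16) at P1, a difference of -0.64 (adjusted p = 5.6e-05). The cerebellar difference of -0.50 (adjusted p = 0.00145) missed the limit on t, at -3.77, but was called with quantile normalization (-0.57, adjusted p = 3.7e-04) and with a separate fit per region (-0.50, adjusted p = 0.00151). Quantile normalization ended the cortical call by the limit on t (-0.45, adjusted p = 0.00485). Calls of this probe set were lost without Ts1Cje replicate 1 (cortex -0.57, hippocampus -0.56) and without disomic replicate 3 (-0.43 and -0.47), and the cortical one also without Ts1Cje replicate 3 (-0.58) and without the dim arrays (-0.50). For the bright Sod1 probe sets the P84 minus P1 differences were 0.00, -0.42 and -0.21 (1459976_s_at) and 0.18, -0.27 and 0.07 (1451124_at) in cerebral cortex, cerebellum and hippocampus, none of them called. Ccs changed by -0.25, -0.31 and -0.15 in the same order, also without a call.

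**Figure D4:**
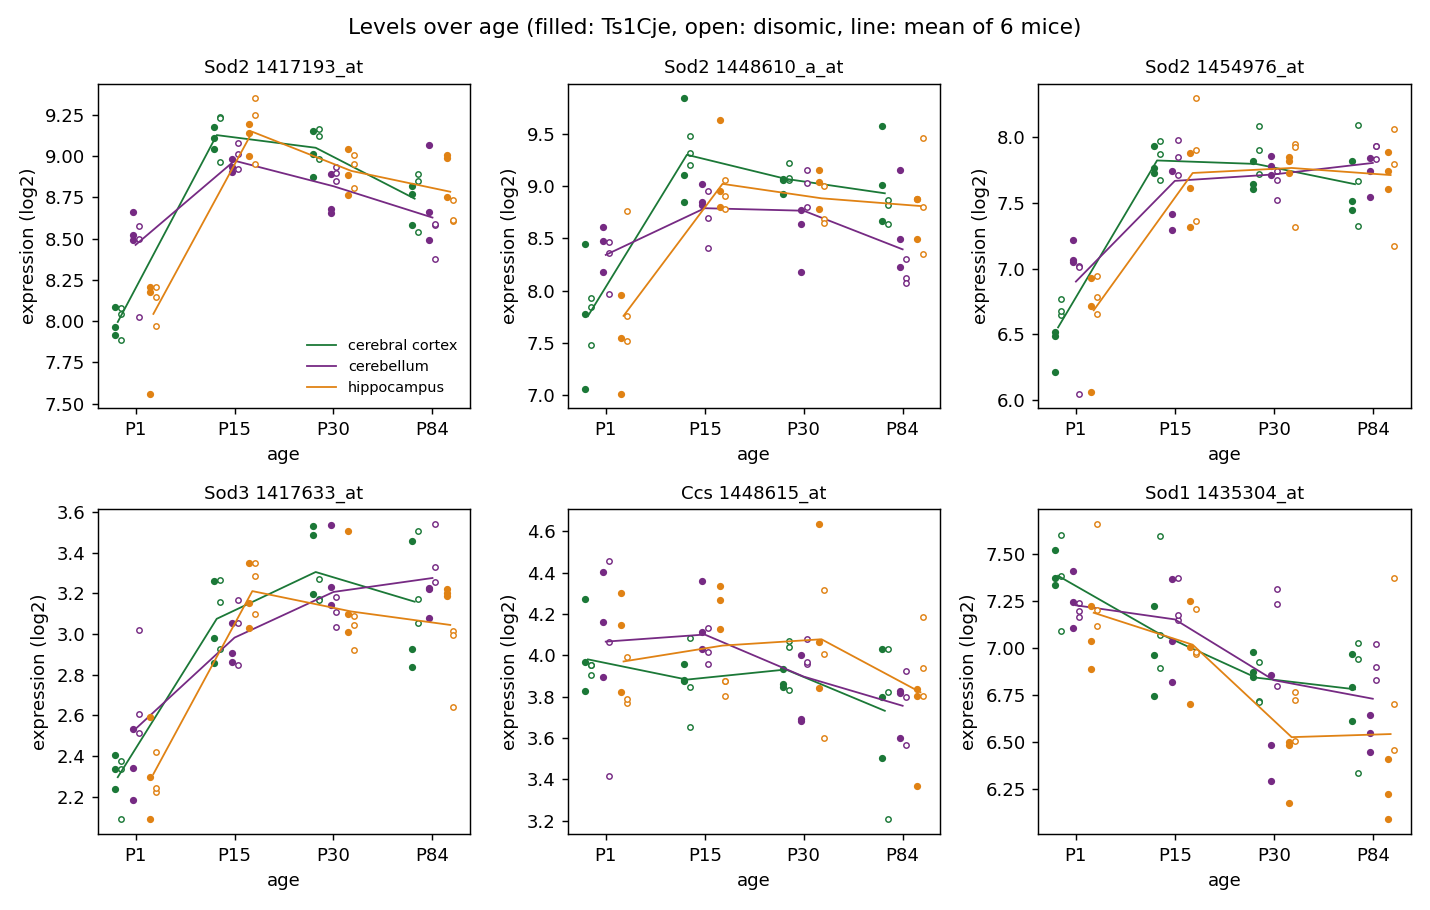
Expression (log2, vertical axes) of 6 member probe sets at P1, P15, P30 and P84, with filled points for Ts1Cje and open points for disomic mice, lines for the mean of 6 mice and colours for the 3 regions. Sod2 1454976_at stands at 6.55 to 6.90 on average at P1 and at 7.64 to 7.81 at P84, Sod3 1417633_at rises over the same ages, and Sod1 1435304_at is lower at P84 than at P1 in each region.

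Markers of several cell types changed with age as well. All 3 measured oligodendrocyte markers of the list were called higher at P84 than at P1 in each region, and their mean level ran from 9.91 to 10.25 at P84 and from 3.53 to 4.27 at P1 in cortex, from 10.32 to 10.59 at P84 and from 3.96 to 4.71 at P1 in cerebellum, and from 10.29 to 10.59 at P84 and from 3.36 to 5.92 at P1 in hippocampus. Of the 5 astrocyte markers, 5, 3 and 3 were called higher in cerebral cortex, cerebellum and hippocampus and 1, Aldh1l1, lower in cerebellum (-2.51), with a cortical mean of 9.03 to 9.46 at P84 and 6.66 to 7.65 at P1. Of the 5 microglial markers 5, 0 and 4 were called higher, with a cortical mean of 6.32 to 6.47 at P84 and 3.67 to 4.78 at P1 and a cerebellar mean of 4.23 to 4.79 at P84 and 3.98 to 4.68 at P1. Of the 4 neuronal markers 4, 3 and 4 were called higher and 1, Nefl, lower in cerebellum (-0.94), and of the 4 markers of smooth muscle and pericytes 3 were called higher in each region. The part of these cell types in the changes of Sod2 and Sod3 was not tested.

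Differences in member levels between the 3 regions were small. Over all ages and both genotypes 29% of all probe sets were called between cerebellum and cerebral cortex, 9.39% between hippocampus and cerebral cortex and 26.8% between cerebellum and hippocampus, and none of the 12 member probe sets was among them in this fit, which treats the regions of a mouse as separate samples. The nearest was Sod1 1451124_at, at 9.96 ± 0.428 in cerebellum, 10.29 ± 0.414 in cerebral cortex and 10.24 ± 0.422 in hippocampus (SD, n = 24 each). Its cerebellar level was lower by 0.33 than the cortical one (log2 difference -0.33, adjusted p = 9.7e-04, t = -3.89) and the difference from the hippocampus was -0.28 (adjusted p = 0.00562). The first of these was called with the mouse as a random block (-0.33, adjusted p = 3.0e-04) and without the displaced arrays (-0.36, adjusted p = 3.8e-04). Sod2 1417193_at averaged 8.72, 8.73 and 8.72 in cerebellum, cerebral cortex and hippocampus, which is no difference beyond the spread over mice, and Ccs averaged 3.96, 3.88 and 3.98.

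For the brightest probe set of each member the genes with the most similar course were sought among 12274 probe sets with a mean level of at least 5, by Pearson r over the 24 group means. For Sod1 1459976_s_at these were Cfap298 (r = 0.918), Ttc3 (0.906), Cbr1 (0.857), Rcan1 (0.829) and Vps26c (0.789). All 5 lie in the triplicated segment, and the group means they share with Sod1 differ by genotype. Sod2 1417193_at ran with Myorg, Ttyh1, Cntn1, Cox6a1 and Cox8a (r from 0.947 to 0.953), of which Cox6a1 and Cox8a encode subunits of cytochrome c oxidase. Sod3 1417633_at ran with Gapdh, Mdh1, Srxn1, Sdha and Acsl6 (0.942 to 0.953), among them enzymes of glycolysis and the citric acid cycle and the sulfiredoxin that repairs oxidized peroxiredoxins. Ccs was most like Kdelr1, Nudt16l1, Ddit4, Hmgn3 and Sh3d19, with r from 0.716 to 0.791, and its group means spanned 0.574, against 1.20 for Sod2. The points share arrays and ages, so these r values describe likeness alone.

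Around the dismutases, a list of 47 genes for hydrogen peroxide removal, the thioredoxin system, glutathione, copper handling, the Nrf2 pathway and superoxide sources was examined, with the brightest probe set of each gene. Of these, 42 were measured, and the others were not analysed here. None of the 42 was called by genotype in the cerebral cortex, cerebellum or hippocampus average. Over all regions 4 were called, all higher in Ts1Cje mice, against the 0.561% of all probe sets given above, of which 233 were higher and 20 lower. In that average 34 of 42 were higher in Ts1Cje mice, with a median difference of 0.0427, against -0.00121 over all probe sets. The list holds the brightest probe set of each gene, so all probe sets are not a like background. This count was not recomputed without the dim arrays, which are all disomic.

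Among the copper genes Atox1, the chaperone that hands copper to the exporting ATPases, differed by 0.25 (adjusted p = 0.0014), and the metal-binding metallothioneins Mt1 and Mt2 by 0.35 (adjusted p = 0.0116) and 0.36 (adjusted p = 0.00917). Nfe2l2, which encodes the transcription factor Nrf2, differed by 0.37 (adjusted p = 0.0159), a call that was lost by the limit on t with the mouse as a random block (adjusted p = 0.045). Atox1 averaged 8.42 ± 0.270 in Ts1Cje and 8.11 ± 0.247 in disomic cerebral cortex (SD, n = 12 each), and the mean was higher in Ts1Cje mice at all 4 ages in each region. Nfe2l2 averaged 5.80 ± 0.497 in Ts1Cje and 5.35 ± 0.471 in disomic hippocampus. The copper importer Slc31a1, at 0.31 (adjusted p = 0.0954), and the peroxiredoxin Prdx4, at 0.27 (adjusted p = 0.0749), missed the limit. These calls depended on which arrays entered the fit. Of the 4, 0 were called without Ts1Cje replicate 3, where Atox1 was at 0.21, Mt1 at 0.21, Mt2 at 0.26 and Nfe2l2 at 0.35, and the count over the list ran from 0 to 7 as each replicate number of each genotype was left out. Catalase (Cat) differed by 0.06, the glutathione peroxidase Gpx1 by 0.04, and the Nrf2 targets Hmox1 and Nqo1 by -0.00497 and 0.0887, none of them called.

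**Figure D5:**
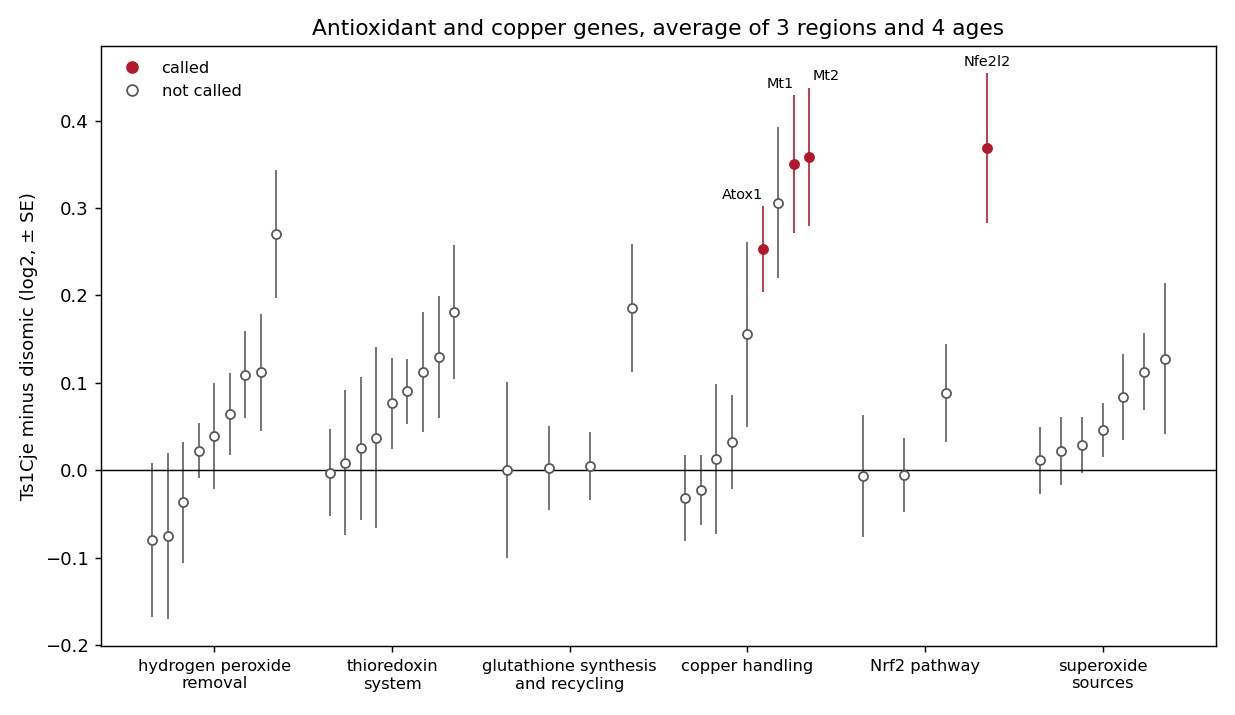
Ts1Cje minus disomic difference in log2 level (vertical axis, average of 3 regions and 4 ages, bars ± SE) for the 42 measured genes of the antioxidant and copper list, 1 point per gene in 6 roles, sorted within each role. Filled red points, Atox1, Mt1, Mt2 and Nfe2l2, were called, at 0.25 to 0.37, and the open points were not.

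With age the same list divided. Cortical levels of 11 genes were called higher and of 11 lower at P84 than at P1, with 9 and 15 for the cerebellum and 10 and 12 for the hippocampus, where 26.4%, 27.3% and 23.5% of all probe sets were called in either direction. Of the 9 measured genes for peroxide removal, 5, 7 and 5 were called lower at P84 in cerebral cortex, cerebellum and hippocampus and 1, Gpx4, higher in cerebral cortex (0.72), with Prdx2 at -1.09, -0.95 and -1.11 and Cat at -0.58, -1.10 and -0.52 in cerebral cortex, cerebellum and hippocampus. The copper importer Slc31a1 fell in all 3 regions, by 2.75, 2.64 and 3.03 on the log2 scale. Higher at P84 were Srxn1, at 3.36, 2.33 and 2.86, the mitochondrial copper chaperone Cox17, at 1.80, 1.59 and 1.78, and the brain metallothionein Mt3, at 2.16, 2.26 and 1.91. Sod2 1454976_at and Cox17 were thus higher at P84 in all 3 regions, and Cat and Prdx2 lower, while the median change over all probe sets was 0.017, -0.0122 and -0.00108.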

How the data were processed

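RNA of 3 brain regions was measured on 72 mouse expression arrays (Affymetrix Mouse Genome), 1 per mouse and region. The authors deposited log2 values made with gcRMA (GCRMA in the submitters' processing notes, its version not given in the sources used here), without pooling replicates, and these were used as deposited. gcRMA compresses differences near the floor. Arrays give no molecule counts, so 3 mice per group set the precision. The platform annotation gave 1 symbol to 34958 of the 45101 probe sets, several to 932 and none to 9211. Gene order and promoters came from RefSeq tables of GRCm38.p6.

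A model with 24 group means and 48 residual degrees of freedom was fitted in limma 3.58.1 (R 4.3.3, lmFit, eBayes). Calls needed a moderated t of 4 or more in size and a p of 0.05 or less after Benjamini-Hochberg adjustment across the array, the limits of the methods. The p-values treat the 3 regions of a mouse as separate samples. The fit was tested on simulated data. Named genes were all member probe sets, up to 3 measured neighbours on each side of Sod1, the 5 genes most like each member, and the antioxidant list, with the brightest probe set of each gene. Members and lists were chosen with earlier results of these data known. Leave-outs of doubted arrays were added after the data were seen, and 17 alternatives were tried.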

Additional observations from a re-analysis of the deposited data

Results flagged for a closer look

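A pair of probe sets was picked out because each had non-overlapping genotypes in both directions among the 12 comparisons. Every Ts1Cje mouse lay above every disomic mouse in 1 comparison and below in 1. Over all probe sets and comparisons the shares were 4.9% above and 4.5% below, so these splits are given as a description only. For both probe sets the opposite splits fell at the same age in different regions. Neither contrast between regions was tested, and none of the 4 differences was called by limma. In the first, Sod2 probe set 1454976_at was at 6.52, 6.49 and 6.21 in Ts1Cje and 6.77, 6.65 and 6.68 in disomic P1 cerebral cortex, a difference of -0.296 on the log2 scale. In the P1 cerebellum it was at 7.22, 7.06 and 7.05 in Ts1Cje and 7.02, 7.01 and 6.05 in disomic mice, a difference of 0.416, and the last disomic value is that of a dim array. In the second, Sod3 probe set 1417633_at was at 3.22, 3.08 and 3.23 in Ts1Cje and 3.54, 3.33 and 3.26 in disomic P84 cerebellum (-0.201), and at 3.19, 3.22 and 3.20 in Ts1Cje and 3.01, 2.64 and 3.00 in disomic P84 hippocampus (0.320), all near the median of the arrays. The lowest of these values, 2.64, belongs to disomic replicate 2, and the third disomic value of the hippocampus is that of a dim array.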

How the results depend on the processing

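Of 3090 values recomputed under the alternatives, 2989 stayed on the same side of the threshold, 66 were no longer called and 35 became called. No called value changed sign, and 165 values that were not called did. The 3 member calls at single ages became 9 with the replicate number as a block over all ages, 0 among probe sets with a mean of at least 5 and 1 with a fit per region. They were 0 to 4 as replicates were left out. The 2 calls in each region average were 1 to 3 as replicates were left out. They were 1 in every region at a mean of at least 5, where 1440222_at is not tested, and 1 in the cerebellum and hippocampus with quantile normalization and with a fit per region. The hippocampal count was 1 without the dim arrays and without all 5 doubted arrays, and the cerebellar count 1 without the 3 arrays with Xist above Eif2s3y. From P1 to P84 the 2 cerebellar calls were 1 at a mean of at least 5 and 3 with quantile normalization and with a fit per region. Between cerebellum and cerebral cortex 0 calls became 1 with the mouse as a random block, without the displaced arrays and without the 5 doubted arrays. With the replicate block over all ages they became 2, as did the 0 between cerebellum and hippocampus. The 4 antioxidant genes were 2 with the replicate block within each age and 0 to 7 as replicates were left out. Same-numbered arrays deviated together (every r above 0.1) in 2 of 12 comparisons, so the numbers were not taken as pairs. The replicate 1 arrays of both genotypes, however, did so in each comparison (r from 0.106 to 0.699). With the block, region averages of Sod1 1459976_s_at were called (adjusted p of 0.00154, 0.0186 and 0.0014 in cerebral cortex, cerebellum and hippocampus within each age). The block within each age kept 3 single-age calls, of which 1 was shared: P15 hippocampal 1459976_s_at (adjusted p = 0.0212) and 1451124_at (0.012) became called and 1440222_at lost its P84 calls (0.0589 in cerebral cortex, 0.057 in cerebellum). It also ended the calls of Mt1 (0.0667) and Nfe2l2 (0.0937). Quantile normalization made the overall fall of 1435304_at a call (-0.24, adjusted p = 0.0166). The causes were not tested. Precision is limited by 3 mice per group, and the dim probe sets of Sod3 and Sod1 1440222_at lie near the floor.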
